A study of Homo sapiens with 14 samples.

Results

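The LIN28, IGF2BP and HMGA genes were followed from human pluripotent stem cells to pancreatic β-like cells. They are 7 genes, chosen by name: LIN28A, LIN28B, IGF2BP1, IGF2BP2, IGF2BP3, HMGA1 and HMGA2. All 7 were among the 60624 gene identifiers in the files. The values came from 14 RNA sequencing libraries in 9 groups, all made from MEL1, a human embryonic stem cell line that carries a GFP reporter at the insulin gene. Levels are in TPM, the abundance of a gene's transcripts relative to all transcripts in its library, with length taken into account, so that different genes can be set side by side. The groups hPSC (undifferentiated cells, kept on CF1 feeder cells), DE (definitive endoderm), PP2 (a stage of pancreatic progenitors) and SC-β (stem cell-derived β-like cells, made without expansion of progenitors) had 1 library each, from batch 1. Expandable pancreatic progenitors (ePPs) at passage 9 (ePP-P9) and passage 21 (ePP-P21), and the β-like cells made from ePPs (ePP-β), had 2 libraries each, from batch 2. The ePPs were grown on feeder cells, in a medium with EGF, bFGF, the TGFβ receptor inhibitor 616452 and 1 μM I-BET151, which blocks the bromodomains of BET chromatin readers. For the late steps to β-like cells, the authors list media without EGF, bFGF or I-BET151. The last groups, DMSO and I-BET151, held stem cell-derived pancreatic progenitors treated for 7 days with solvent or with 1 μM I-BET151, with 2 libraries each, from batch 3. All comes from 1 cell line, and the sources used here do not say whether replicate libraries came from separate cultures, so p-values measure the spread between these libraries only.

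LIN28A and LIN28B are RNA-binding proteins that block the maturation of the let-7 microRNAs and mark pluripotent and early fetal cells. IGF2BP1, IGF2BP2 and IGF2BP3 bind messenger RNAs and affect their stability, location and translation. HMGA1 and HMGA2 are small proteins that bind AT-rich DNA and change chromatin shape. These genes are called oncofetal because most are high in the embryo, low in most adult tissues and high again in many tumours. Mature let-7 represses several of them through their 3′ untranslated regions (UTRs), while LIN28 proteins hold let-7 down. The mature microRNAs were not measured in these libraries.

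A let-7 seed match was found in the 3′ UTR of each of the 7 genes. The RefSeq table (GRCh38.p14) listed 9 mature microRNAs of the let-7 family, miR-98 included, and all 9 shared the seed GAGGUAG at bases 2 to 8. The sequences of let-7a and of miR-98, a relative with another tail, follow 5′ to 3′ with the seed in capitals.
hsa-let-7a-5p: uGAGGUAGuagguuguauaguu
hsa-miR-98-5p: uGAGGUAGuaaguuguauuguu
The complement of the seed, CTACCTC, was searched on the coding strand of the 3′ UTR of each gene's Ensembl canonical transcript (GENCODE release 44, GRCh38). There were 4 matches each in LIN28B, IGF2BP1 and HMGA2, and 1 match each in LIN28A, IGF2BP2, IGF2BP3 and HMGA1. Of 19538 protein-coding 3′ UTRs searched, 9.77% held a match, and 12 held 4 or more. The match nearest to the stop codon is printed for each gene with the bases around it, since these sites link the 3 families. The match is in capitals.
LIN28A, chr1:26427341-26427370, plus strand: ttggagtgcacagcctattgaaCTACCTCa
LIN28B, chr6:105078805-105078834, plus strand: ttcctttacccggttgcaaagtCTACCTCa
IGF2BP1, chr17:49051054-49051083, plus strand: gcaatgctgtgtgcgaagtaaaCTACCTCa
IGF2BP2, chr3:185644220-185644249, minus strand: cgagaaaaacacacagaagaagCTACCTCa
IGF2BP3, chr7:23311795-23311824, minus strand: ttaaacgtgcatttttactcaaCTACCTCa
HMGA1, chr6:34245822-34245851, plus strand: ccatttttcctctgttcacaaaCTACCTCt
HMGA2, chr12:65963291-65963320, plus strand: agggggcgccaacgttcgatttCTACCTCa
Long UTRs hold more matches, so each gene was set beside UTRs within 10% of its own length. Among these, the share with a match was 16.6% for LIN28A (UTR of 3270 bases), 24.9% for LIN28B (4549 bases), 37.6% for IGF2BP1 (6701 bases) and 13.2% for IGF2BP2 (2401 bases). It was 13.6% for IGF2BP3 (2153 bases), 7.88% for HMGA1 (1347 bases) and 14.9% for HMGA2 (2999 bases). These shares are for 1 or more matches. For the genes with 4 matches, the share of such UTRs with 4 or more was 0.132% for LIN28B and 0% for IGF2BP1 and HMGA2, the 7 genes left out. A match is a run of letters and not a shown site of repression.

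The libraries listed between 14982 and 17578 genes at 1 TPM or more, and read depth is unknown because TPM keeps no counts. POU5F1, the core pluripotency factor, was at 3401 TPM in hPSC and 389 TPM in DE, and at or below 0.389 TPM in all other libraries. PDX1, which marks pancreatic progenitors, was between 53.8 and 251 TPM in PP2 and in every later library. The 10 β-cell and endocrine markers summed to 114364 TPM in SC-β and to 42621 and 47162 TPM in ePP-β, against 3.80 to 41.1 TPM elsewhere. This sum is not of insulin alone: in SC-β, glucagon (GCG) was at 74281 TPM, insulin (INS) at 20658 TPM and somatostatin (SST) at 2757 TPM. In ePP-β, GCG was at 14107 and 13360 TPM, INS at 10916 and 17374 TPM and SST at 391 and 468 TPM. IAPP was at 9.62 TPM in SC-β and at 0.463 and 0.538 TPM in ePP-β. All of these are bulk samples, in which fewer cells of a type and less RNA per cell cannot be told apart. The median of log2(TPM + 1) over genes at 1 TPM or more lay between 3.57 (SC-β) and 4.04 (ePP-P21 replicate 2), so small differences between single libraries depend on scaling.

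LIN28A (ENSG00000131914, chromosome 1, 26410817 to 26429728, plus strand) had the widest range of the 7 genes. It was at 460 TPM in hPSC, 625 TPM in DE and 276 TPM in PP2. The ePP-P9 pair held 59.1 and 61.3 TPM and the ePP-P21 pair 64.5 and 67.7 TPM. The ePP-β pair held 13.97 and 12.2 TPM, and SC-β 11.7 TPM. The DMSO libraries held 126 and 172 TPM, and the I-BET151 libraries held 50.3 and 151 TPM. The highest level was therefore 53.2 times the lowest, and the 4 ePP libraries lay together, below PP2 and DMSO and above both kinds of β-like cells. In the same ePP libraries the pluripotency genes POU5F1, NANOG and TDGF1 were at or near 0. SOX2 was at 1.79 to 2.78 TPM, DPPA4 at 1.29 to 2.99 TPM and DNMT3B at 5.20 to 6.32 TPM. Of the pluripotency genes listed, only L1TD1, an RNA-binding protein of pluripotent cells, was higher, at 63.7 to 83.0 TPM. PP2 and the ePPs came from different batches and had different media, so these cannot be told apart. PP2 also had higher levels of endothelial markers and of most mesenchymal ones. Of 10 mesenchyme genes, 9 were at 1 TPM or more in PP2, against 5 or 6 in the ePPs. COL3A1 was at 779 TPM (24.7 to 36.0 TPM in the ePPs) and LUM at 171 TPM (0.447 to 1.38 TPM). VIM went the other way, at 381 TPM in PP2 and 1351 to 1725 TPM in the ePPs. With VIM included, the mesenchyme list summed to 1894 TPM in PP2 and to 1397 to 1774 TPM in the ePPs. All 4 endothelial genes reached 1 TPM in PP2 and summed to 48.7 TPM, against 0.406 to 0.778 TPM in the ePPs. Their part in the difference between PP2 and the ePPs was not tested.

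LIN28B (ENSG00000187772, chromosome 6, 104936616 to 105083332, plus strand) stayed between 29.9 and 42.1 TPM in hPSC, DE, PP2 and the ePPs. It was at 31.7 TPM in hPSC, 35.3 TPM in DE and 39.4 TPM in PP2. The ePP-P9 pair held 42.1 and 38.6 TPM and the ePP-P21 pair 29.9 and 37.4 TPM. The ePP-β pair held 27.7 and 22.8 TPM, and SC-β held 6.92 TPM, the lowest level. The order of its group means from ePP-P9 through PP2, DE, ePP-P21 and hPSC spanned 40.4 to 31.7 TPM, and neighbours in this stretch lay within the SD of the replicated groups where there was one. The rise from DE to PP2 turned to a fall of 0.35 (log2) after centring on library medians and of 0.28 after quantile normalization.

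HMGA1 was lower and HMGA2 higher in PP2 than in hPSC, and both were low in SC-β. HMGA1 (ENSG00000137309, chromosome 6, 34236873 to 34246231, plus strand) was the most abundant of the 7 genes in all 14 libraries. It went from 2377 TPM in hPSC to 1403 TPM in DE, 891 TPM in PP2 and 131 TPM in SC-β. The ePP-P9 libraries held 648 and 548 TPM, the ePP-P21 libraries 404 and 464 TPM, and the ePP-β libraries 180 and 162 TPM. DMSO held 653 and 426 TPM and I-BET151 held 688 and 409 TPM, so replicates differed more than the treatments. HMGA2 (ENSG00000149948, chromosome 12, 65824460 to 65966291, plus strand) was at 61.1 TPM in hPSC and 63.0 TPM in DE, and then at 219 TPM in PP2. The ePP-P9 pair held 277 and 280 TPM and the ePP-P21 pair 203 and 248 TPM. The ePP-β pair held 86.3 and 75.3 TPM, and SC-β held 22.3 TPM. The highest HMGA2 level in all libraries was 291 TPM in I-BET151 replicate 2. The I-BET151, ePP-P9, ePP-P21 and PP2 group means were neighbours in order, between 219 and 278 TPM, and each gap was within the larger SD. Copies of HMGA1 could take some of its reads: the largest, HMGA1P8, held at most 1.65% of the HMGA1 level.

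The 3 IGF2BP genes were lower in SC-β than in PP2. IGF2BP1 (ENSG00000159217, chromosome 17, 48997385 to 49056145, plus strand) was at 26.0 TPM in hPSC, 46.4 TPM in DE, 61.5 TPM in PP2 and 7.28 TPM in SC-β. The ePP-P9 pair held 50.3 and 48.6 TPM, the ePP-P21 pair 29.95 and 44.1 TPM and the ePP-β pair 20.9 and 21.3 TPM. IGF2BP1 was thus lower in hPSC than in PP2 and every ePP library, unlike IGF2BP3. IGF2BP3 (ENSG00000136231, chromosome 7, 23310209 to 23470491, minus strand) was at 90.1 TPM in hPSC, 45.7 TPM in DE, 39.9 TPM in PP2 and 10.0 TPM in SC-β. The ePP-P9 pair held 54.1 and 59.8 TPM, the ePP-P21 pair 51.2 and 59.7 TPM and the ePP-β pair 32.3 and 29.4 TPM. All 4 ePP libraries lay above PP2 for IGF2BP3. IGF2BP3 overlaps MALSU1 on the opposite strand, which was at 13.7 to 36.2 TPM, and the use of strand is not given in the sources used here.

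IGF2BP2 (ENSG00000073792, chromosome 3, 185643130 to 185825042, minus strand), the family member that is also present in many adult tissues, changed least. It was at 107 TPM in hPSC, 49.3 TPM in DE, 78.9 TPM in PP2 and 30.7 TPM in SC-β. The ePP-P9 pair held 60.6 and 47.5 TPM, the ePP-P21 pair 63.2 and 77.9 TPM and the ePP-β pair 44.8 and 49.3 TPM. Its highest level was 3.88 times its lowest, which was 27.6 TPM in DMSO replicate 2. For the other 6 genes this ratio ran from 6.09 (LIN28B) to 53.2 (LIN28A), and SC-β was the lowest library in each.

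**Figure D1:**
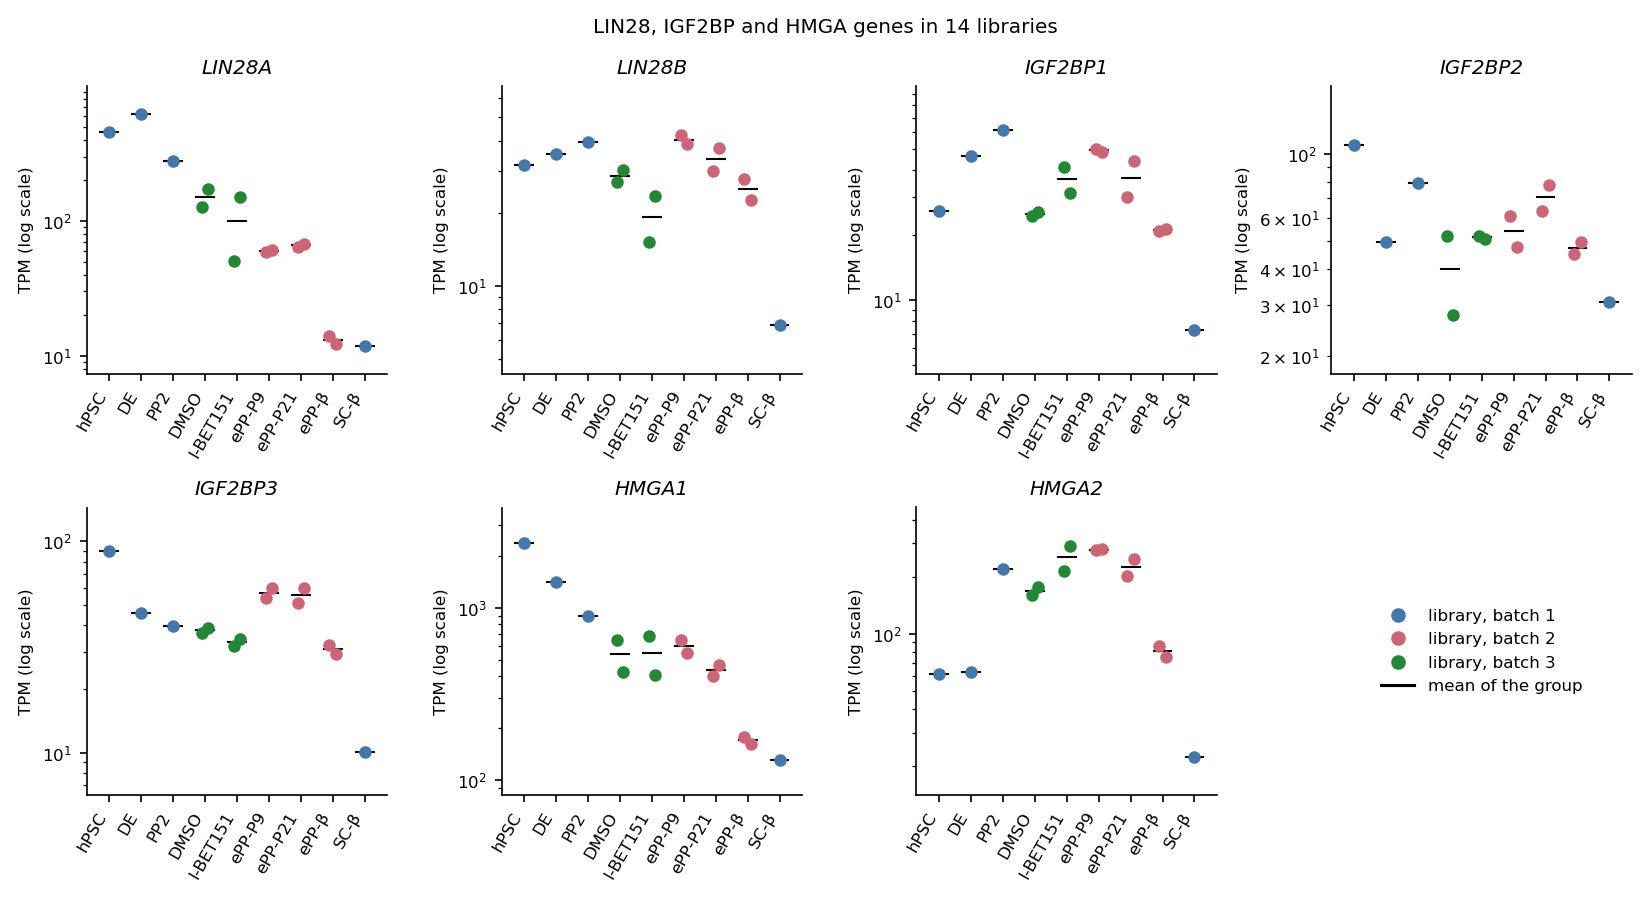
TPM of each gene (vertical axis, log scale with its own range in each panel) in the 9 groups (horizontal axis). Points are libraries coloured by batch and bars are group means. LIN28A and HMGA1 step down from hPSC or DE to the β-like cells, HMGA2 is highest in the progenitor groups, and SC-β is lowest for all genes but IGF2BP2.

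The make-up of each family shifted along with the levels. LIN28A held 93.5% of the summed LIN28 TPM in hPSC, 94.7% in DE and 87.5% in PP2. It held 58.4% to 68.3% in the ePPs and 33.5% and 34.9% in ePP-β, the only group in which LIN28B was the more abundant. SC-β held 62.9%. The log2 ratio of LIN28A to LIN28B was 0.78 ± 0.27 (SD, n = 4) in the ePPs and -0.94 ± 0.06 (SD, n = 2) in ePP-β, with no overlap. The two-sided exact permutation test over libraries gave p = 0.133, the smallest that 2 against 4 libraries allow, so it cannot pass 0.05. HMGA1 held 97.5% of the HMGA TPM in hPSC, 80.2% in PP2, 65.2% to 70.0% in the ePPs and 67.5% and 68.3% in ePP-β. Its log2 ratio to HMGA2 was 1.02 ± 0.14 (SD, n = 4) in the ePPs and 1.08 ± 0.03 (SD, n = 2) in ePP-β (difference 0.06, exact permutation p = 0.667). In SC-β, HMGA1 held 85.4%. IGF2BP2 held 64.0% of the IGF2BP TPM in SC-β and 29.9% to 49.3% in all other libraries.

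**Figure D2:**
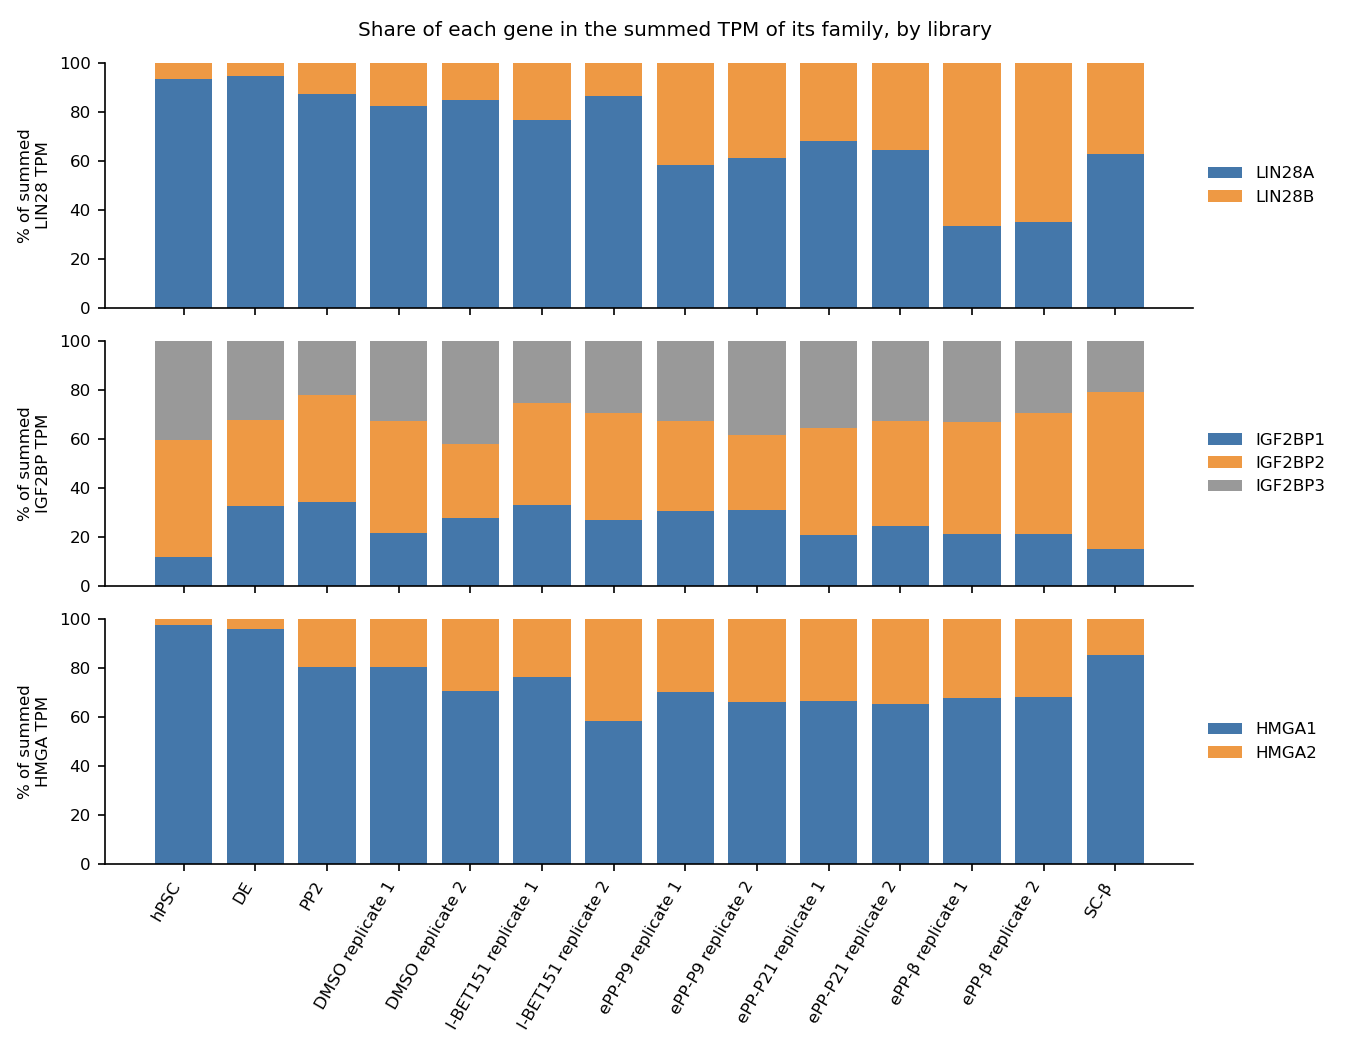
Share of each gene in the summed TPM of its family (vertical axis, %) in every library (horizontal axis). LIN28A falls from 93.5% in hPSC to 33.5% and 34.9% in ePP-β, while HMGA1 falls from 97.5% in hPSC to 65.2% to 70.0% in the ePPs.

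The comparison of ePP-β with ePPs asked what changes when the expanded progenitors become β-like cells. The media changed with the cell type, in I-BET151, EGF and bFGF among others, so medium and cell type cannot be told apart. LIN28A fell 4.55-fold, HMGA2 3.07-fold and HMGA1 2.97-fold, IGF2BP1 and IGF2BP3 fell less, and LIN28B fell least of the genes that passed. Fits used limma on log2(TPM + 1) over 18076 genes, with Benjamini-Hochberg adjustment over all of them, and a gene was called at an adjusted p under 0.05 and a log2 fold change beyond 1. With these limits 3 of the 7 genes were called lower, where 9.86% of all tested genes were called lower and 17.9% higher. By adjusted p alone 6 of 7 were lower, against 28.2% of all tested genes lower and 29.2% higher. The groups did not overlap for these 6 genes, and did not overlap for 63.8% of all tested genes. The median gene had a log2 fold change of -0.03, and -0.19 after quantile normalization, which also made 47.5% of the called genes higher in place of 64.5%.

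LIN28A fell from 63.2 ± 3.73 TPM (SD, n = 4) in ePPs to 13.1 ± 1.23 TPM (SD, n = 2) in ePP-β. Its log2 fold change was -2.19 (SE 0.09, limma adjusted p = 1.64e-05), and only 0.73% of tested genes had a lower one. HMGA1 fell from 516 to 171 TPM (log2 fold change -1.57, SE 0.10, limma adjusted p = 7.98e-05). HMGA2 fell from 252 to 80.8 TPM (log2 fold change -1.62, SE 0.10, limma adjusted p = 7.64e-05). IGF2BP1 fell from 43.2 to 21.1 TPM (log2 fold change -0.97, SE 0.16, limma adjusted p = 0.00275), just short of the limit of 1. It passed that limit with a pseudocount of 0.1 (-1.002), with median centring (-1.11) and without ePP-P21 replicate 1 (-1.11). IGF2BP3 fell from 56.2 to 30.9 TPM (log2 fold change -0.84, SE 0.10, limma adjusted p = 0.00081). LIN28B fell from 37.0 to 25.2 TPM (log2 fold change -0.53, SE 0.13, limma adjusted p = 0.0159). Its limma adjusted p was 0.0889 without ePP-β replicate 2, 0.0608 with no filter and 0.0794 in a fit of all 10 replicated libraries. IGF2BP2 was at 62.3 TPM in ePPs and 47.0 TPM in ePP-β, its libraries overlapped, and its log2 fold change was -0.38 (95% interval -0.71 to -0.04, limma adjusted p = 0.0562). With a filter of 5 TPM or with median centring, all 7 genes, IGF2BP2 included, had a limma adjusted p under 0.05.

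**Figure D3:**
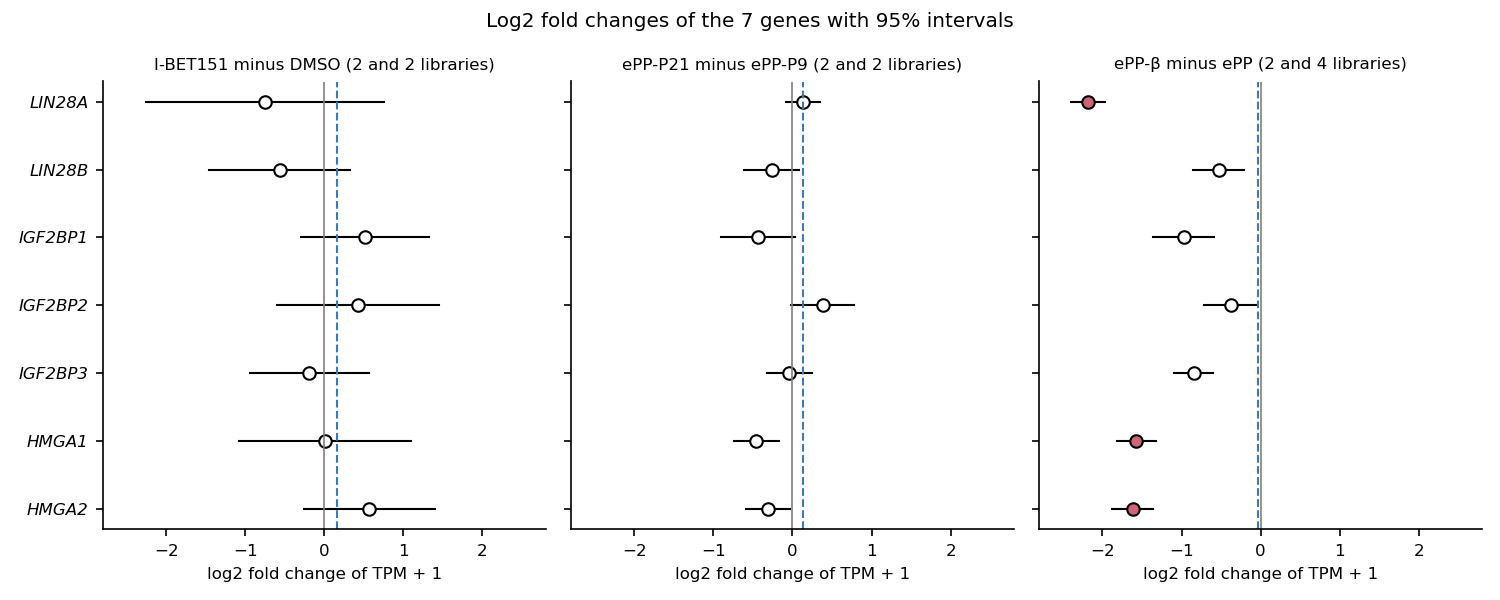
Log2 fold change of TPM + 1 (horizontal axis) of the 7 genes (vertical axis) in the 3 replicated comparisons, with 95% intervals as lines. Filled points passed both limits, the grey line is 0 and the dashed line is the median of all tested genes. Filled points appear only for LIN28A, HMGA1 and HMGA2 in ePP-β against ePPs.

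Genes of cell division fell together with these genes in ePP-β. All 10 listed proliferation genes were called lower, with a median log2 fold change of -1.53, among them MKI67 (-1.49), TOP2A (-1.35) and RRM2 (-2.24), the small subunit of ribonucleotide reductase. Their summed level was 314 and 320 TPM in ePP-β and 873 to 1033 TPM in the ePPs. Of the hepatocyte list, 6 of 6 tested genes were called higher, and its sum was 167 to 190 TPM in ePPs (5 of 7 genes at 1 TPM or more) and 15972 and 18523 TPM in ePP-β (6 of 7). The called genes were TTR (16.6 to 14286 TPM, log2 fold change 9.70), SERPINA1 (94.2 to 1831 TPM, 4.27), APOA1 (64.2 to 947 TPM, 3.86), FGB (5.64 to 102 TPM, 4.22), APOB (2.16 to 32.8 TPM, 3.45) and ALB (0.509 to 48.5 TPM, 5.04). TTR made up most of the ePP-β sum, and GCG and INS were high in the same libraries. Whether endocrine or liver-like cells held the genes of this list was not tested. The mesenchyme list summed to 1397 to 1774 TPM in the ePPs, most of it VIM, and to 510 and 551 TPM in ePP-β. Of the gut list, 5 of 6 genes were called higher and CDX2 lower, and its sum was 136 to 144 TPM in the ePPs and 700 and 761 TPM in ePP-β, most of it MUC13 (15.1 to 509 TPM). Of 4 neural genes tested, PAX6 and MAP2 were called higher, and the list summed to 451 to 531 TPM in the ePPs and to 377 and 386 TPM in ePP-β. PAX6 was at 64.9 and 87.8 TPM in ePP-β, beside high endocrine markers, and at 0 to 0.00602 TPM in the ePPs. Whether endocrine or neural cells held it was not tested. The part of proliferation or of cell types in the falls of LIN28, IGF2BP and HMGA genes was not tested.

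Of the genes that act on let-7 and other microRNAs, 16 of 16 were tested in ePP-β against ePPs, 3 were called lower and none higher. By adjusted p alone 10 were lower and 1 was higher, and the list median was -0.57. TRIM71, an RNA-binding ubiquitin ligase of stem cells and itself a let-7 target, went from 27.9 to 7.35 TPM (log2 fold change -1.79, limma adjusted p = 0.000106). KHSRP, which promotes let-7 processing, went from 143 to 48.4 TPM (-1.52, limma adjusted p = 0.000126), and DROSHA, the nuclear microRNA-processing enzyme, went from 16.4 to 7.52 TPM (-1.01, limma adjusted p = 0.0145). The gene higher by adjusted p was DICER1, which cuts the precursors in the cytoplasm, at 21.9 and 38.3 TPM (0.79, limma adjusted p = 0.00118). TUT4, which adds uridines to let-7 precursors bound by LIN28A, went from 16.8 to 11.7 TPM (-0.44, limma adjusted p = 0.048), and DIS3L2, which degrades the tailed precursors, went from 16.3 to 9.05 TPM (-0.77, limma adjusted p = 0.00742). TUT7, the partner of TUT4, had a log2 fold change of 0.30 (limma adjusted p = 0.186).

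The primary transcripts that carry let-7 were partly visible. The annotation held 12 let-7 or miR-98 hairpins inside 9 genes on the same strand, picked by position in the annotation after the data were seen. MIRLET7BHG, MIR100HG and MIR99AHG were between 0 and 2.05 TPM in all libraries. MIRLET7A1HG, host of 3 hairpins, was between 0.629 and 4.00 TPM. WDR82 and HUWE1, protein-coding hosts, were at 45.2 to 93.9 and 17.1 to 38.3 TPM. In the host list named for this study, 3 genes passed the filter, RTL6 among them, which holds no let-7 hairpin in the annotation. None was called in any comparison, and HUWE1 was lower in ePP-β at an adjusted p alone (log2 fold change -0.67, limma adjusted p = 0.0141).

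Other known let-7 targets did not share 1 direction in ePP-β. Of 24 tested, 4 were called higher and 3 lower, by adjusted p alone 9 were higher and 7 lower, and the list median was 0.01. MYC, a growth-promoting transcription factor, was lower, from 136 to 17.8 TPM (log2 fold change -2.85). CDC25A, a cell cycle phosphatase, was lower (-1.74), as was the transcriptional repressor HIC2 (-1.04). ACVR1C, a receptor of the activin and nodal family, was higher, from 1.02 to 137 TPM (6.10). THBS1 (1.72), CDK6 (1.35) and MYCN (1.25) were the other genes called higher. Among IGF2BP cofactors and clients 13 were tested and none was called, while 10 were lower and 2 higher by adjusted p alone, with a median of -0.63. YBX1, an RNA-binding partner of the IGF2BP proteins, went from 788 to 422 TPM (-0.90), SYNCRIP had a log2 fold change of -0.69 and HNRNPU one of -0.66.

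Other oncofetal genes also split. Of 15 tested in ePP-β against ePPs, 5 were called lower and 3 higher. SALL4, a stem cell transcription factor, was lower (29.8 to 8.87 TPM, log2 fold change -1.64), as were GPC3 (-1.46), SOX4 (-1.39), TPBG (-1.29) and TRIM71. AFP, the fetal plasma protein, was higher (99.8 to 762 TPM, 2.93), as were DLK1 (4.88) and CDH17 (2.07). All adjusted p-values of these 8 genes, from limma, were at or below 0.000664.

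**Figure D4:**
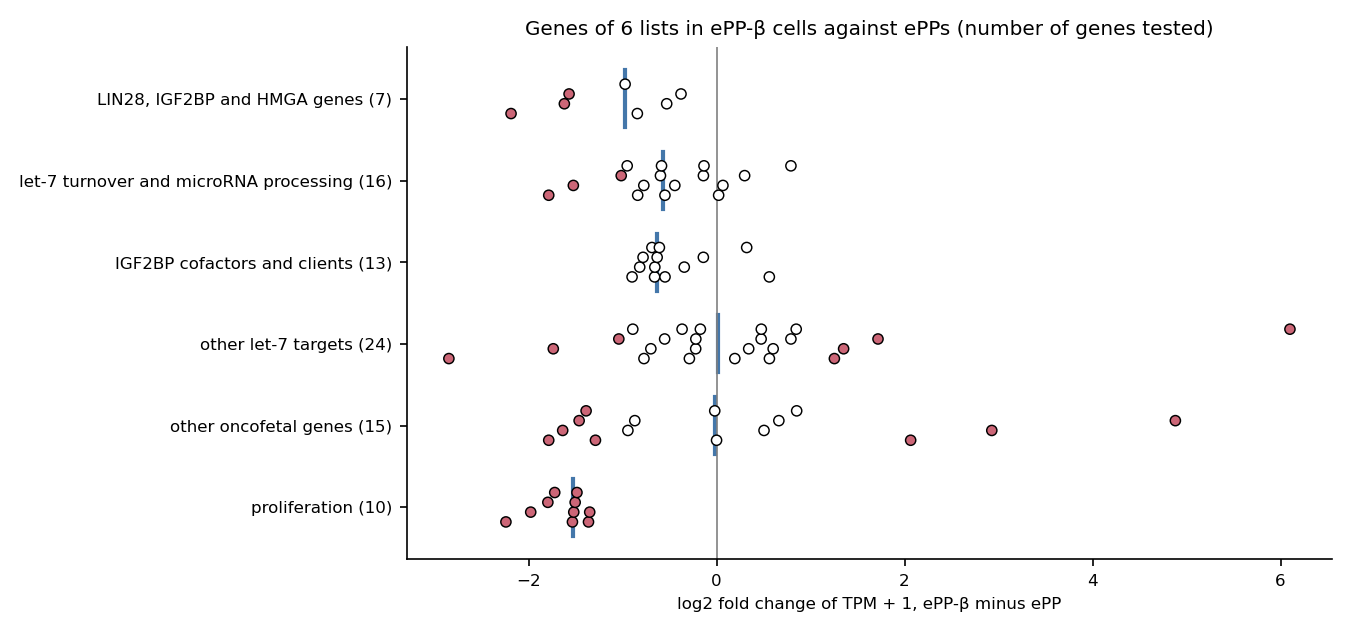
Log2 fold change of TPM + 1 in ePP-β against ePPs (horizontal axis) for each tested gene of 6 lists (vertical axis, number of genes in parentheses). Filled points were called and vertical bars are list medians. The LIN28, IGF2BP and HMGA genes and the proliferation genes all lie below 0, while other let-7 targets and other oncofetal genes lie on both sides.

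The 2 routes to β-like cells ended at different levels for some of these genes. From PP2 to SC-β, with 1 library each and no test, all 7 genes were lower in SC-β, by 23.5-fold for LIN28A, 9.82-fold for HMGA2, 8.44-fold for IGF2BP1 and 6.80-fold for HMGA1. The ratio was 5.69 for LIN28B, 3.98 for IGF2BP3 and 2.57 for IGF2BP2. The share of all genes lower in SC-β than in PP2 was not counted. The median of log2(TPM + 1) over genes at 1 TPM or more was 3.98 in PP2 and 3.57 in SC-β. The top 10 genes held 4.88% of the TPM in PP2 and 17.8% in SC-β. How much of the ratios goes with this was not tested. The proliferation genes summed to 1114 TPM in PP2 and 183 TPM in SC-β, below the 314 and 320 TPM of ePP-β. The hepatocyte list summed to 2383 TPM in PP2 and 29107 TPM in SC-β. Most of the SC-β sum was TTR (749 TPM in PP2 and 24727 TPM in SC-β), while ALB was at 10.1 and 560 TPM. Their part in the differences was not tested. In ePP-β, HMGA2 (3.62 times SC-β), LIN28B (3.65 times), IGF2BP3 (3.08 times) and IGF2BP1 (2.90 times) were above SC-β in both libraries. IGF2BP2 was 1.53 times SC-β and HMGA1 1.30 times. LIN28A was 1.12 times SC-β in TPM, but its log2 difference turned to -0.01 with median centring and -0.02 with quantile normalization. SC-β also held COL1A1 at 896 TPM and COL3A1 at 1210 TPM, collagens of mesenchymal cells, against 8.63 and 5.90 TPM (COL1A1) and 29.7 and 22.8 TPM (COL3A1) in ePP-β. SC-β was from batch 1 and ePP-β from batch 2, so the batch and the route cannot be told apart.

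The comparison of ePP-P21 with ePP-P9 asked whether the cells hold their state over passages. None of the 7 genes was called, where 1.13% of 15822 tested genes were called by limma. An unadjusted limma p under 0.05 was found for 2 of the 7 and for 3641 of all tested genes. HMGA1 was at 598 ± 70.5 TPM (SD, n = 2) in ePP-P9 and 434 ± 42.5 TPM (SD, n = 2) in ePP-P21, a log2 fold change of -0.46 (95% interval -0.74 to -0.18, limma adjusted p = 0.101). HMGA2 was at 278 ± 1.72 and 225 ± 32.2 TPM (SD, n = 2 each), a log2 fold change of -0.31 (95% interval -0.59 to -0.04, limma adjusted p = 0.178). Both HMGA genes were lower in every late library without passing the adjusted test, which HMGA1 passed only without ePP-P9 replicate 2 (limma adjusted p = 0.0381, log2 fold change -0.58).

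The groups did not overlap for 6 of the 7 genes, but 54.4% of all tested genes did not overlap either. LIN28B (-0.26), IGF2BP1 (-0.43), HMGA1 and HMGA2 were the genes lower in both ePP-P21 libraries, and LIN28A (0.13) and IGF2BP2 (0.38) were higher. The median gene stood at 0.13, and at -0.07 after median centring, so LIN28A lay at the median and changed sign with it (-0.07). Relative to the median gene, HMGA1 was at -0.59, IGF2BP1 at -0.56 and HMGA2 at -0.44. IGF2BP3 overlapped between the passages (log2 fold change -0.04, 95% interval -0.33 to 0.25). Proliferation genes were not called either, with a list median of -0.09. In the lists of let-7 turnover, let-7 targets, IGF2BP cofactors and oncofetal genes, none was called between the passages, though GPC3, a fetal glypican, had a limma adjusted p of 0.0379 (log2 fold change 0.65).

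The comparison of I-BET151 with DMSO asked what 7 days of BET inhibition change in pancreatic progenitors. None of the 7 genes was called by limma, where 0.21% of 16687 tested genes were called. None of the 7 had an unadjusted limma p under 0.05 either, against 2536 of all tested genes. This fit had no term for the replicate number, though replicate differences correlated across genes at r = 0.675 between DMSO and I-BET151. With such a term, 4 of the 7 had an unadjusted limma p under 0.05, as did 6465 of the 16687 tested genes. None of the 7 was called with it, where 13.7% of all tested genes were called. The median gene stood at 0.16. The intervals were wide: for LIN28A the log2 fold change was -0.75 (95% interval -2.25 to 0.75, limma adjusted p = 0.607). LIN28A was at 126 and 172 TPM with DMSO and at 50.3 and 151 TPM with I-BET151, so the groups overlapped. The value depends on the I-BET151 libraries: it was 0.03 without replicate 1 and -1.53 without replicate 2.

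The groups did not overlap for 4 of the 7 genes, against 46.8% of all tested genes. LIN28B was at 27.1 and 30.3 TPM with DMSO and at 15.3 and 23.5 TPM with I-BET151 (log2 fold change -0.57, 95% interval -1.46 to 0.33). IGF2BP3 was at 36.9 and 39.0 TPM and at 31.8 and 34.6 TPM (-0.19, 95% interval -0.94 to 0.56). Both were lower in each treated library. IGF2BP1 was at 24.5 and 25.8 TPM with DMSO and at 41.6 and 31.5 TPM with I-BET151 (0.51, 95% interval -0.30 to 1.32). HMGA2 was at 160 and 177 TPM and at 216 and 291 TPM (0.57, 95% interval -0.26 to 1.40). These genes were higher in each treated library, and the limma adjusted p of all 4 lay between 0.476 and 0.811. IGF2BP2 was at 51.9 and 27.6 TPM with DMSO and at 51.9 and 50.8 TPM with I-BET151 (0.43), and HMGA1 had a log2 fold change of 0.01 that turned to -0.07 with median centring.

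Of the pathway and oncofetal lists, 1 gene was called between I-BET151 and DMSO. DLK1, an imprinted fetal gene, was at 949 TPM with DMSO and 88.1 TPM with I-BET151 (log2 fold change -3.41, limma adjusted p = 0.048), and was 1 of 14 oncofetal genes tested. None of 16 let-7 turnover genes, 23 other let-7 targets or 13 IGF2BP cofactors was called. Markers of other cell types differed between these groups: the gut list, 6 of 6 genes at 1 TPM or more in each library, summed to 1409 and 1565 TPM with DMSO and to 268 and 338 TPM with I-BET151. The marker genes called, all lower, were the trefoil factors TFF2 (log2 fold change -6.05) and TFF1 (-5.06) of the gut list, TTR (-4.26) of the hepatocyte list and LUM (-3.37) of the mesenchyme list, each at a limma adjusted p of 0.048. The hepatocyte list (7 of 7 genes with DMSO, 6 of 7 with I-BET151) summed to 4583 and 5870 TPM and to 726 and 1375 TPM. The pancreatic progenitor list summed to 460 and 553 TPM with DMSO and to 898 and 1555 TPM with I-BET151. All 9 of its tested genes were higher by sign, with a median log2 fold change of 1.04, and none was called. The 10 proliferation genes summed to 430 and 563 TPM with DMSO and to 642 and 837 TPM with I-BET151. The part of these in the values of LIN28, IGF2BP and HMGA genes was not tested.

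Correlations across the 9 group means of log2(TPM + 1) describe which genes had the most similar course. These points share batches and lineage order, so no p is given. HMGA1 lay closest to LIN28A among the 7 genes (r = 0.956), while HMGA1 and HMGA2 had r = 0.231. LIN28B lay closest to IGF2BP1 (r = 0.888) and IGF2BP3 (r = 0.872), and IGF2BP2 to IGF2BP3 (r = 0.817). Among 11863 other protein-coding genes that reached 10 TPM in a group, the closest to HMGA1 were CENPW (r = 0.984), MIS18A (0.982) and UBE2C (0.976). The closest to HMGA2 were ATAD2 (r = 0.983), USP1 (0.973) and DHRS7B (0.967). The closest to LIN28A were PLD2 (r = 0.967), ENSG00000270149 (0.965) and CENPA (0.964), and to LIN28B TNIK (0.952), BORA (0.947) and CSNK2A1 (0.945). For IGF2BP1 they were AFAP1 (r = 0.963), KHDRBS1 (0.961) and JADE3 (0.960), for IGF2BP2 STX6 (0.955) and GNPTAB (0.946), and for IGF2BP3 ZWILCH (0.986), WDHD1 (0.972) and NCAPG2 (0.970). Over the 14 single libraries, CENPW, ATAD2, WDHD1 and KHDRBS1 were the closest of all to HMGA1, HMGA2, IGF2BP3 and IGF2BP1. Others moved far down the order over single libraries: TNIK to place 191 for LIN28B (r = 0.769), PLD2 to place 136 for LIN28A (r = 0.783) and USP1 to place 57 for HMGA2 (r = 0.882).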

How the data were processed

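The authors prepared libraries from total RNA with the NEBNext Ultra RNA kit, sequenced paired ends on an Illumina instrument, aligned reads to GRCh38 with HISAT2 2.1.0 (per the labels) and quantified genes with StringTie. The deposited values are TPM per Ensembl gene, 1 file per library. The annotation release, the use of strand and read depth are not given in the sources used here. The listed TPM summed to 908685 to 985497 per library, all 37 mitochondrial genes were listed at 0, and 60370 identifiers matched GENCODE release 44. A gene entered a fit when 2 or more of its libraries reached 1 TPM. Values were transformed as log2(TPM + 1), on which fold changes of low genes are understated. The tests were two-sided moderated tests of limma 3.58.1 with an intensity trend, run in R 4.3.3, using only the groups compared, all of 1 batch. Both passages had equal weight in the ePP fit, and ePP levels in TPM are means of 4 libraries. ± denotes SD. The authors' differential test (DESeq2) needs counts and was not used. The code was tested on simulated data. Genes in the text are the 7 members, listed genes, and for each member the 3 protein-coding genes reaching 10 TPM in a group with the highest correlation over group means, of which 1 is not reported here. The members, the lists and the rules were chosen with earlier results of these data known. Let-7 sequences came from RefSeq and 3′ UTRs from GENCODE. The alternatives tried were smaller pseudocounts (0.1, 0.01), another filter (none, 5 TPM), median centring, quantile normalization, no trend, a replicate block, other sets of libraries, each library left out and no fold limit.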

Additional observations from a re-analysis of the deposited data

How the results depend on the processing

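No member was called in I-BET151 against DMSO or in ePP-P21 against ePP-P9 under any alternative run (0 with each library left out in turn). In ePP-β against ePP, 3 members were called, and 3 or 4 with a library left out, where IGF2BP1 passed without ePP-P21 replicate 1. With no fold limit there were 6. A library left alone in its group was assumed to vary like the others. Among all genes, 35 were called for I-BET151 and 0 to 2294 under the alternatives, 178 for ePP-P21 (94.9% of them higher) and 0 to 478, and 5020 for ePP-β and 3466 to 5820. After quantile normalization, 13 were called for ePP-P21, 76.9% of them higher, and 0 were after median centring or without ePP-P21 replicate 1. For ePP-β, median centring gave 55.2% of calls higher, and the fits without ePP-β replicate 1 or 2 gave 50.9% and 44.8%.

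The titles number replicates alike in each group but give no shared origin, and with 2 pairs the numbers were not taken to pair libraries. Replicate differences correlated across genes at r = 0.675 between DMSO and I-BET151, at -0.0093 between the passages and at -0.0040 to 0.0439 in the ePP-β fit. With a replicate block, 0 members were called for I-BET151 (2294 of all genes, in place of 35), 0 for ePP-P21 (66 of all genes) and 3 for ePP-β. For I-BET151 with the block, 4 of the 7 members had an unadjusted limma p under 0.05, as did 6465 of 16687 tested genes. HMGA2 had a limma adjusted p of 0.0626 with the block.

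Signs turned for the values that follow, and the cause was not tested. With median centring, HMGA1 was at -0.071 for I-BET151 and LIN28A at -0.074 for ePP-P21. LIN28B from DE to PP2 was at -0.35 (-0.28 after quantile normalization), and IGF2BP1 at -0.11. From PP2 to ePP, LIN28B was at 0.32 (0.21) and IGF2BP2 at 0.059. LIN28A in ePP-β minus SC-β was at -0.014 (-0.022). With a library left out, I-BET151 values ran from -1.53 to 0.033 (without I-BET151 replicate 1) for LIN28A, from -0.015 (without DMSO replicate 2) to 0.87 for IGF2BP2 and from -0.36 to 0.38 for HMGA1. IGF2BP3 in ePP-P21 ran from -0.15 to 0.069. Unknown depth and 2 libraries a group limit the precision.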
